A study of Mus musculus with 2 samples.

Results

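Glycolysis and the response to low oxygen were followed through 10 genes of the mouse colon: the glycolytic enzymes Hk2, Aldoa, Pgk1, Eno1, Pkm and Ldha, and the hypoxia targets Egln3, Bnip3, Adm and Vegfa. The members were listed by symbol, and all 10 were found among the 17044 genes of the deposited table. Single cells of colon epithelium came from wild-type C57BL/6 mice exposed to irradiation and sampled after 2 weeks, as 1 group with 2 libraries. The title of the study places them in work on radiation proctitis treated by transplanting colonoids, which are organoids grown from colon crypts. The labels do not say which cells, if any, descend from a graft, nor give sex, age or number of animals, and unirradiated samples were not analysed here. Each value is the authors' mean over the cells of 1 of 12 clusters, numbered 0 to 11, in UMIs (unique molecular identifiers, counted transcript molecules) per 10000 UMIs of a cell.

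In glycolysis, glucose is phosphorylated, split into 3-carbon sugars and turned into pyruvate, which is either oxidised in mitochondria or reduced to lactate. When oxygen is plentiful, prolyl hydroxylases of the EGLN family mark the alpha subunits of hypoxia-inducible factor (HIF) for destruction through the VHL ubiquitin ligase. When oxygen is scarce the alpha subunits persist, pair with ARNT and raise transcription of glycolytic enzymes, glucose transporters and signals to blood vessels. The surface epithelium of the colon faces an almost anaerobic lumen and is known to live at low oxygen, and mature colonocytes are known to burn butyrate, a product of gut bacteria, in their mitochondria.

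The columns name no library, so the 2 libraries could not be compared, no value has a replicate and no test between clusters was made. Differences are given by size. The 95% intervals are exact intervals of the effective number of UMIs behind an average and cover counting error only, not differences between animals or libraries. Because cells were clustered on the same expression values, a difference between clusters describes them and is not independent evidence. Levels are compared between clusters, not between genes.

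The averages came from 3082 cells, from 482 in cluster 0 to 31 in cluster 10 and 19 in cluster 11. Clusters 5 and 6 were shallow, with medians of 1457 and 2548 UMIs per cell, and cluster 7 was deepest, with 19522. By marker genes cluster 0 was goblet-like, 5 neutrophil-like, 7 proliferating-like and 11 enteroendocrine-like. Cluster 8 was absorptive colonocyte-like, with 4 of 8 absorptive markers at their highest. Clusters 4 and 9 each held the highest value of 2 of those 8 markers and are given by number, as are 1, 2, 3 and 6. Cluster 10 held the highest value of all 8 macrophage and dendritic markers, all 6 measured T and NK cell markers and 3 of 5 mast cell markers, and has no name here.

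Across the 12 clusters, cluster 4 held the most peaks of the members. Of the 10, 5 were highest in cluster 4 (Hk2, Pkm, Egln3, Bnip3 and Adm), 2 in cluster 8 (Aldoa and Ldha), 2 in cluster 10 (Pgk1 and Eno1) and 1 in cluster 6 (Vegfa). The ratio of the highest to the second cluster had an interval above 1 for Hk2, Egln3, Aldoa and Ldha. For the remaining members that interval included 1. Among the 3276 genes that reached 1 UMI per 10000 in at least 1 cluster, 9.8% were highest in cluster 4 and 10.8% in cluster 8. Over all genes these shares were 7.01% and 8.47%. All 10 members lay above the mean of the other 11 clusters in cluster 4, and 8 of 10 did so in cluster 8. Of the 3276 genes 35.4% lay above it in cluster 4 and 35.9% in cluster 8, and of all genes 31.4% and 30.5%. Cluster 1 also had 8 of 10 members above it, with 1480 of the 3276 genes and 6222 of all 17044. Cluster 10 had 6 members above it, with 1171 and 4644 genes. A level at least 2-fold above that mean, computed on values with 0.1 per 10000 added, was seen for 4 members in cluster 4 (Egln3, Adm, Bnip3 and Hk2) and for 2 in cluster 8 (Adm and Ldha). The same fold was reached in cluster 4 by 9.92% of the 3276 genes and by 3.26% of all genes, and in cluster 8 by 10.9% and 3.7%. With 1 per 10000 added, which weighs down low genes, only Egln3 kept the fold in cluster 4 and only Ldha in cluster 8. In cluster 8, Adm also lost it without the immune clusters 5 and 10, while Ldha lost it without the shallow clusters 5 and 6 (log2 fold 0.97), against the median of the other clusters (0.91) and after rescaling without mitochondrially encoded and ribosomal protein genes (0.89). Of the members, 7 reached 1 per 10000 somewhere, while Pgk1, Adm and Vegfa stayed below it in all 12 clusters. Egln3 and Bnip3 reached it in cluster 4 alone. They are thus among the 3276 genes only through the cluster in which they were highest. Pgk1, Adm and Vegfa are not among those genes. For all of these members only the shares over all genes apply.

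**Figure D1:**
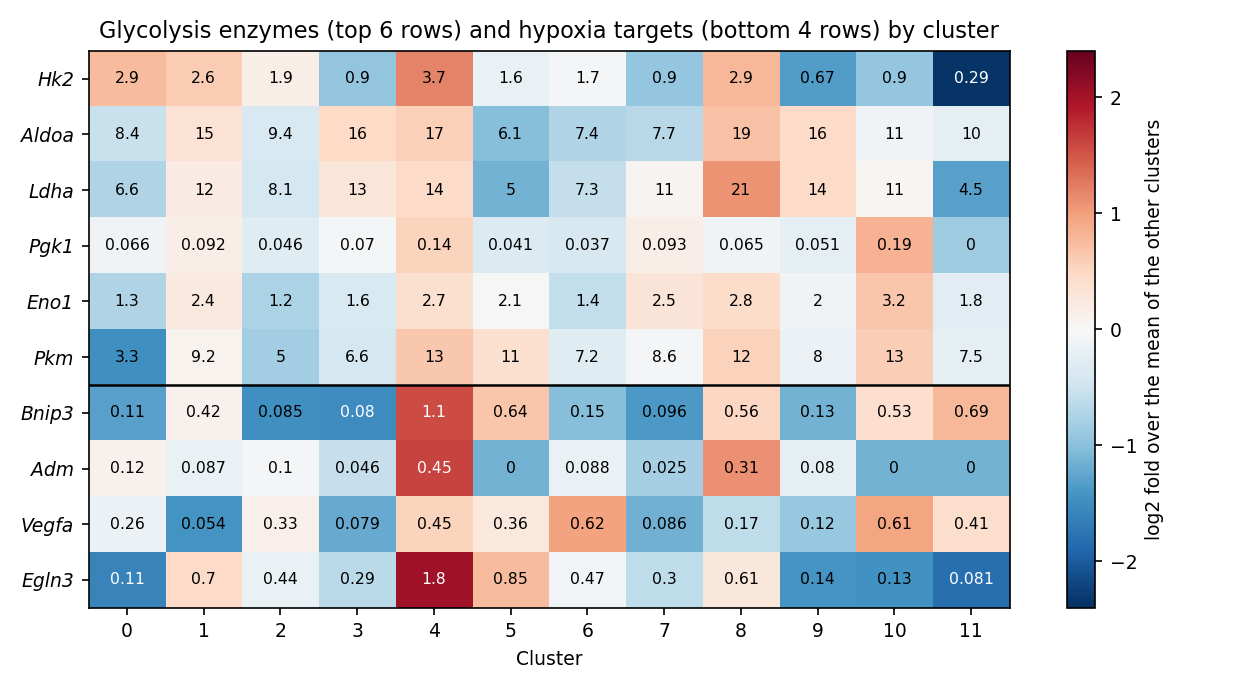
Mean level of each member in each cluster, printed in UMIs per 10000, with colour for the log2 ratio to the mean of its 11 fellow clusters (0.1 per 10000 added). The column of cluster 4 is above that mean in all 10 rows, with the deepest red for Egln3, and the goblet-like cluster 0 is above it only for Hk2 and Adm.

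The 10 members had a median log2 fold of 0.61 in cluster 4 and 0.53 in cluster 8, relative to the mean of the remaining clusters. Over all genes the medians were -0.10 in cluster 4 and -0.11 in cluster 8. The lowest medians of the members were -0.64 in the proliferating-like cluster 7 and -0.63 in the goblet-like cluster 0. All genes had -0.02 and -0.08 there. In cluster 7 the 6 enzymes had a median of 0.02 and the 4 targets one of -0.98. In cluster 0 these were -0.63 and -0.72. With 1 per 10000 added, the members' medians were -0.17 in cluster 7 and -0.41 in cluster 0. In cluster 0 the levels of Pkm, Bnip3 and Egln3 were lower than that mean by a factor of 2 or more, and 22.9% of the 3276 genes were that low there. Ribosomal protein genes took 5.87% of the UMIs in cluster 4, and their share was 4.01% for cluster 8 and 16.2% for cluster 0. Malat1, a nuclear RNA, took 4.76%, 1.96% and 2.02% in the same clusters. When values were rescaled without mitochondrially encoded and ribosomal protein genes, the median of the members was 0.52 in cluster 4.

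The member promoters are shown because HIF is known to bind DNA at a short core motif, here searched as ACGTG and GCGTG on both strands. They were taken from RefSeq (GRCm38.p6, the assembly that mm10 names), as the 250 bases before a listed transcription start, read 5′ to 3′ along the gene. The members had 17 listed starts, and all 10 genes were matched. ACGTG stood before 9 of the 17 starts (52.9%), against 22.1% of promoters of genes that reached 1 per 10000 and 16.6% of all 32851 promoters. GCGTG stood before 7 starts (41.2%), which is no larger a share than the 43.8% of promoters of genes that reached 1 per 10000, and 28.2% of all promoters held it. Either motif stood before 14 starts (82.4%), against 55.2% and 38.6%. Several starts of 1 gene overlap, so the 17 are not independent. Of the 2 starts listed for Vegfa, the outermost had no match to either motif. The Vegfa matches lay before the other start, at 46025163, inside the gene. The promoters of the 4 members at least 2-fold higher in cluster 4 and the first of the 2 listed for Ldha, the member most raised in cluster 8 among those that reached 1 per 10000, read as follows, with every ACGTG and GCGTG in capitals (as CACGT and CACGC where the match is on the opposite strand).
Hk2, chr6:82774455-82774704 (minus strand): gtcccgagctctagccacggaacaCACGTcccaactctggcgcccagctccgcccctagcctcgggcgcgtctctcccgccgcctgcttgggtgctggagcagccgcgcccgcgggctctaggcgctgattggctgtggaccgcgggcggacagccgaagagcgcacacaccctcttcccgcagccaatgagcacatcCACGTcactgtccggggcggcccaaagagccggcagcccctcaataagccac
Egln3, chr12:54203875-54204124 (minus strand): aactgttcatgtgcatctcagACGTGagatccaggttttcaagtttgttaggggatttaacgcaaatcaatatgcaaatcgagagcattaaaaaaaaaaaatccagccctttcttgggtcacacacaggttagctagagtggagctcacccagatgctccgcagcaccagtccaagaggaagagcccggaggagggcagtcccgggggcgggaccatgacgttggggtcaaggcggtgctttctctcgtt
Bnip3, chr7:138909507-138909756 (minus strand): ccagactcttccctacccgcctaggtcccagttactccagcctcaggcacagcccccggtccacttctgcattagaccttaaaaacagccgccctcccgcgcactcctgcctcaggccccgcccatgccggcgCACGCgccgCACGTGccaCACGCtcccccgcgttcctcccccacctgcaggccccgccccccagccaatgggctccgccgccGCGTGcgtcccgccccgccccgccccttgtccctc
Adm, chr7:110627407-110627656 (plus strand): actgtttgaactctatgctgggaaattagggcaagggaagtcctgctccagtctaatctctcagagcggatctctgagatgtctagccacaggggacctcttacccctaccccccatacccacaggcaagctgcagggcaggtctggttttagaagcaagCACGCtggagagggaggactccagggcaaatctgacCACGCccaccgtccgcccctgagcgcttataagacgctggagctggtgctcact
Ldha, chr7:46845554-46845803 (plus strand): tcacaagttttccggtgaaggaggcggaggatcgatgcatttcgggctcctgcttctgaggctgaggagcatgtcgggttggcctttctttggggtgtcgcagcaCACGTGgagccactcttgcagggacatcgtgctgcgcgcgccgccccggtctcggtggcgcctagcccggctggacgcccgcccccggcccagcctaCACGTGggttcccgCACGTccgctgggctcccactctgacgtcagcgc
The Ldha promoter shown held 5 matches to ACGTG, 4 of them as 2 palindromes CACGTG that count once on each strand. The second listed Ldha promoter (chr7:46846832-46847081, plus strand) held none, and 1 match to GCGTG. The Bnip3 promoter held 2 matches to ACGTG, which are 1 such palindrome, and 3 to GCGTG. Hk2 had 2 matches to ACGTG, the nearer beginning 52 bases before the start. Adm had 2 matches to GCGTG and none to ACGTG in this window, and Egln3 had 1 match to ACGTG, 229 bases before the start. A match is a run of letters and was not tied to binding or to the levels below.

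Egln3 encodes a prolyl hydroxylase that marks HIF alpha subunits and is itself a HIF target, on chromosome 12 (54178981 to 54203874). Its level in cluster 4 was 1.84 per 10000 (95% interval 1.55 to 2.16). The next were 0.853 in the neutrophil-like cluster 5, 0.698 in cluster 1 and 0.605 in cluster 8. Clusters 6, 2, 7 and 3 had 0.469, 0.441, 0.304 and 0.292, and clusters 9, 10, 0 and 11 had 0.136, 0.129, 0.107 and 0.0808. Cluster 4 thus stood apart from every other cluster, at 2.15 times the level of cluster 5 (1.41 to 3.41) and 17.1 times that of cluster 0 (9.63 to 33.3). Below it, no neighbouring pair in the order had a ratio whose interval lay above 1.

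Bnip3, a protein of the outer mitochondrial membrane that promotes the removal of mitochondria by autophagy, lies on chromosome 7 (138890836 to 138909506). It stood at 1.13 per 10000 in cluster 4 (0.912 to 1.39). Behind it came cluster 11 at 0.693 (0.344 to 1.24, from 19 cells), cluster 5 at 0.637, cluster 8 at 0.562, cluster 10 at 0.526 and cluster 1 at 0.418. The other 6 clusters lay between 0.0802 in cluster 3 and 0.151 in cluster 6. The levels thus fell into an upper and a lower set of 6 clusters, and the step between them, from cluster 1 down to cluster 6, was the only one between neighbours with an interval above 1 (2.78-fold, 1.12 to 8.69). Cluster 4 was 2.02 times cluster 8 (1.39 to 2.98) and 10.5 times cluster 0 (5.80 to 20.7), while its lead over cluster 11 had an interval that included 1 (0.869 to 3.41). Of 90-base windows of the Bnip3 transcript, 11.8% also occur in transcripts of other genes. For Pkm and Ldha these shares were 13.0% and 2.43%.

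Adm encodes adrenomedullin, a peptide that widens blood vessels and tightens endothelial barriers, on chromosome 7 (110627657 to 110629820). It was rare, at 0.445 per 10000 in cluster 4 (0.311 to 0.617) and 0.307 in cluster 8 (0.195 to 0.46). The goblet-like cluster 0 followed at 0.124, and clusters 1, 2, 3, 6, 7 and 9 lay between 0.0248 and 0.102. It was listed at 0 in clusters 5, 10 and 11, where a count of 0 allows up to 0.0992, 0.129 and 0.191 per 10000. Clusters 4 and 8 did not stand apart from each other (ratio 1.45, 0.835 to 2.56), and cluster 8 stood above cluster 0 (2.48-fold, 1.24 to 5.16).

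Vegfa, the main growth factor for new blood vessels, had its highest level outside cluster 4, unlike the other 3 targets. Its gene is on chromosome 17 (46016993 to 46032377), and its highest levels were 0.615 per 10000 in cluster 6 (0.384 to 0.935), 0.607 in cluster 10 (0.333 to 1.01) and 0.452 in cluster 4 (0.317 to 0.626). Clusters 11, 5, 2 and 0 had 0.412, 0.365, 0.326 and 0.260, and cluster 8 had 0.168. The lowest were 0.120 in cluster 9, 0.0857 in cluster 7, 0.0792 in cluster 3 and 0.0540 in cluster 1. No neighbouring pair in this order stood apart, though cluster 4 was 2.69 times cluster 8 (1.39 to 5.56) and 8.38 times cluster 1 (3.31 to 26.8). Cluster 6 held shallow cells, with 8.05% mitochondrially encoded RNA, and the part of this in its Vegfa level was not tested.

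**Figure D2:**
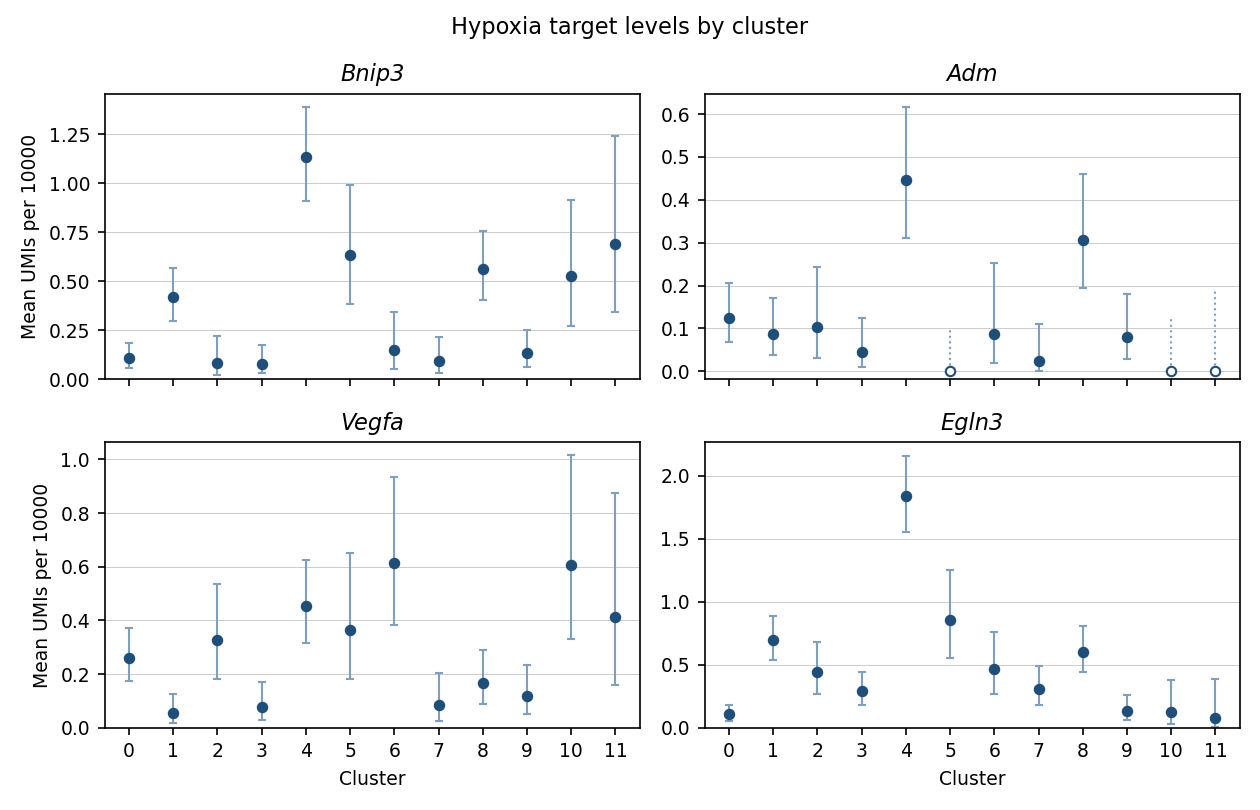
Levels of the 4 hypoxia targets (mean UMIs per 10000) by cluster, with 95% counting intervals. Open circles are listed at 0 with a dotted line up to the level 3 counts would allow. Egln3, Bnip3 and Adm are highest in cluster 4, at 1.84, 1.13 and 0.445, and Vegfa is highest in cluster 6, at 0.615.

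Among the enzymes that reached 1 per 10000, Hk2 had the widest spread, 12.9-fold between cluster 4 and cluster 11 (5.21 to 43.3). Hexokinase 2, the inducible enzyme that traps glucose in the cell, is encoded on chromosome 6 (82725025 to 82774454). Its level was 3.67 per 10000 in cluster 4 (3.26 to 4.11). Clusters 8, 0, 1 and 2 had 2.92, 2.85, 2.57 and 1.92, and clusters 6 and 5 had 1.68 and 1.57. Clusters 7, 10, 3, 9 and 11 had 0.905, 0.900, 0.895, 0.668 and 0.285. Cluster 4 stood above cluster 8 (1.26-fold, 1.05 to 1.51) and above cluster 0 (1.29-fold, 1.10 to 1.51). The goblet-like cluster 0 was thus among the high clusters for Hk2, at 4.27 times cluster 9 (3.12 to 5.96), although it was the lowest of 12 for Pkm.

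Aldolase A, encoded by Aldoa on chromosome 7 (126795234 to 126800994), splits fructose bisphosphate. Its levels in clusters 8, 4, 3, 9 and 1 were 18.5, 17.1, 16.1, 15.9 and 14.9 per 10000. In clusters 10, 11, 2, 0, 7, 6 and 5 they were 11.2, 10.3, 9.41, 8.43, 7.68, 7.42 and 6.09. These 2 sets were separated by the step from cluster 1 to cluster 10 (1.33-fold, 1.16 to 1.52), and the highest and the lowest cluster differed 3.04-fold (2.61 to 3.57).

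Ldha, the lactate dehydrogenase subunit that favours lactate formation, is also on chromosome 7 (46842274 to 46855627). Cluster 8 had 20.6 per 10000 (19.6 to 21.7), ahead of clusters 9, 4, 3, 1 and 7 with 14.2, 14.1, 12.8, 12.03 and 11.03. Clusters 10, 2, 6, 0, 5 and 11 had 10.9, 8.08, 7.26, 6.61, 5.02 and 4.45. Cluster 8 stood apart from all others, at 1.45 times cluster 9 (1.34 to 1.57) and 4.63 times cluster 11 (3.64 to 5.97). Between clusters 9 and 4 there was no difference beyond counting error.

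Pkm, pyruvate kinase M, makes pyruvate and is on chromosome 9 (59656576 to 59679372). The table has 1 value for the gene, so its M1 and M2 splice forms are not distinguished. The 4 highest levels were 13.0 per 10000 in cluster 4 (12.2 to 13.8), 12.6 in cluster 10, 12.4 in cluster 8 and 11.2 in cluster 5, an order in which no neighbours stood apart. Clusters 1, 7, 9, 11, 6 and 3 had 9.17, 8.58, 7.96, 7.47, 7.17 and 6.62. Clusters 2 and 0 were lowest, at 5.002 and 3.27, and cluster 4 was 3.99 times cluster 0 (3.55 to 4.497).

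Pgk1 and Eno1 are uncertain here. Phosphoglycerate kinase, the product of Pgk1 on chromosome X (106187100 to 106203699), gives the first ATP yield of the pathway, and enolase, the product of Eno1 on chromosome 4 (150236708 to 150248879), makes phosphoenolpyruvate. Of 90-base windows of their transcripts, 67.2% for Pgk1 and 61.3% for Eno1 also occur in other annotated transcripts, among them Pgk1-rs7 and Eno1b, and how reads that match several genes were counted is not given in the sources used here. Pgk1 reached at most 0.191 per 10000, in cluster 10 (0.0567 to 0.467), followed by 0.144 in cluster 4, and was listed at 0 in cluster 11, where up to 0.191 is allowed. Its clusters 4 and 8, at 0.144 and 0.0650, were not separated (2.22-fold, 0.717 to 8.19). Eno1 ranged between 3.20 in cluster 10 (2.52 to 4.01) and 1.23 in cluster 2, with 2.75 in cluster 8 and 2.68 in cluster 4, and no neighbours in its order stood apart. Eno1b was at 0.0595 in cluster 11 and at most 0.00923 elsewhere.

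**Figure D3:**
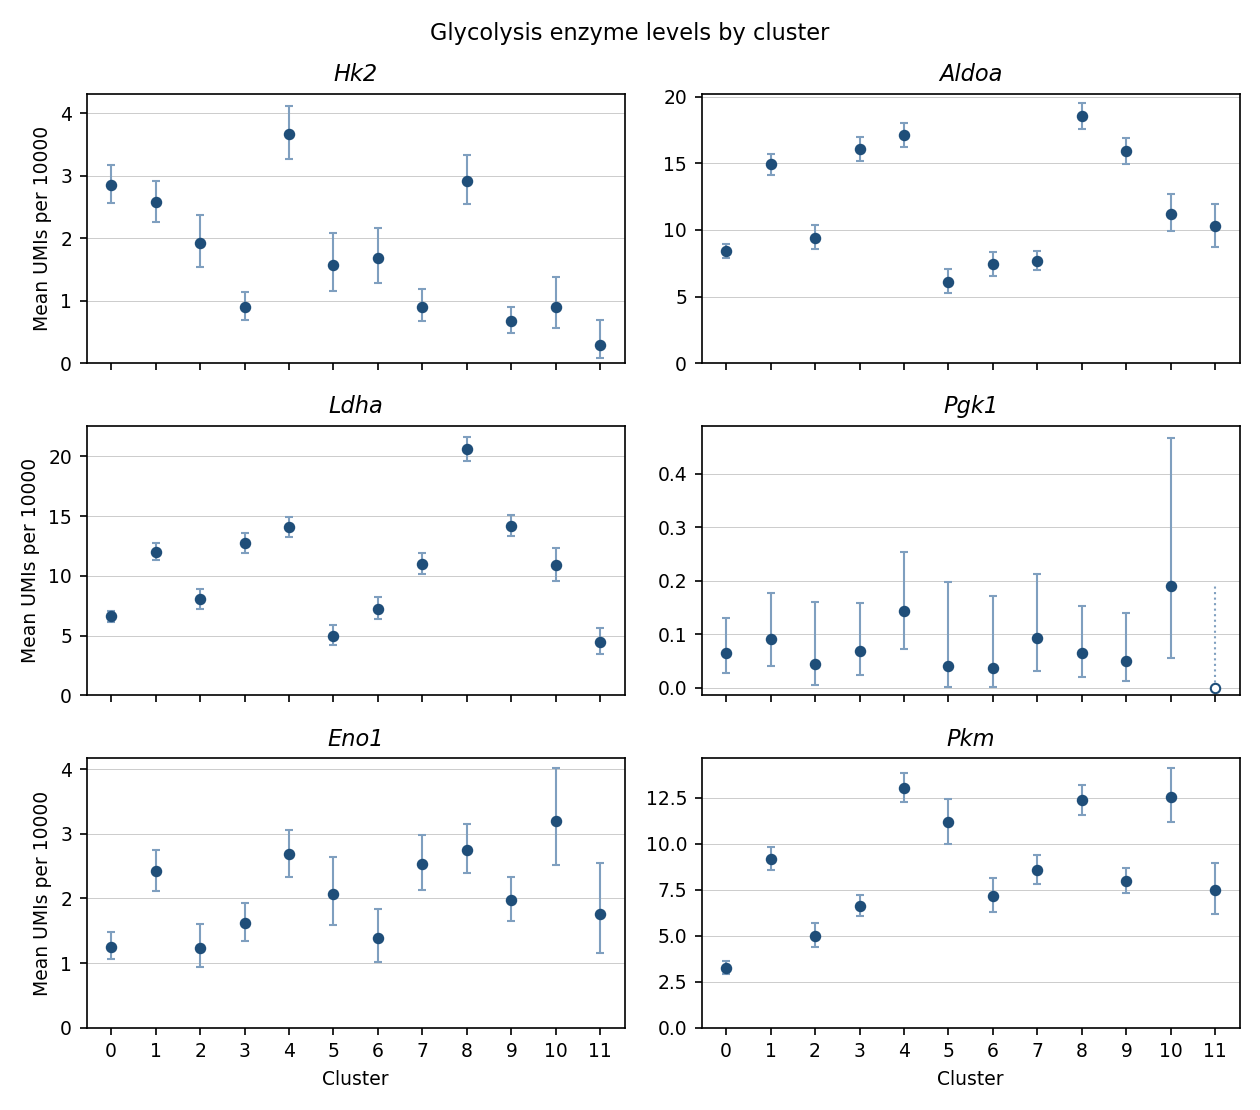
Levels of the 6 glycolytic enzymes (mean UMIs per 10000) by cluster, with 95% counting intervals, on a separate scale for each gene. Hk2 peaks in cluster 4 at 3.67, Ldha in cluster 8 at 20.6, and Pkm is lowest in cluster 0 at 3.27. The open circle for Pgk1 is listed at 0.

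Clusters 4 and 8 held 7 of the 10 peaks and differed in which members were high. Higher in cluster 4 than in cluster 8, with an interval above 1, were 4 members: Egln3 (3.04-fold, 2.16 to 4.33), Vegfa, Bnip3 and Hk2. Lower were 2 members: Ldha (ratio 0.684, 0.633 to 0.739) and Aldoa (0.924, 0.857 to 0.996). For Pkm, Eno1, Adm and Pgk1 the interval included 1, at 0.965 to 1.15 for Pkm and 0.800 to 1.18 for Eno1. Of the 3276 genes, 23% were higher and 17.2% lower by the same measure. On the log2 scale the Aldoa ratio was -0.11, and -0.0037 after rescaling without Malat1, mitochondrially encoded and ribosomal protein genes, a scaling under which the level of Aldoa was nearly equal in both clusters. The Ldha ratio was then -0.44, and those of Egln3 and Bnip3 were 1.71 and 1.12. Xist, the RNA that silences an X chromosome in females, was at 2.99 per 10000 in cluster 4 and listed at 0 in cluster 8, and 4 Y-linked genes summed to 0.839 and 0.967. The part of this difference in the member ratios was not tested.

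**Figure D4:**
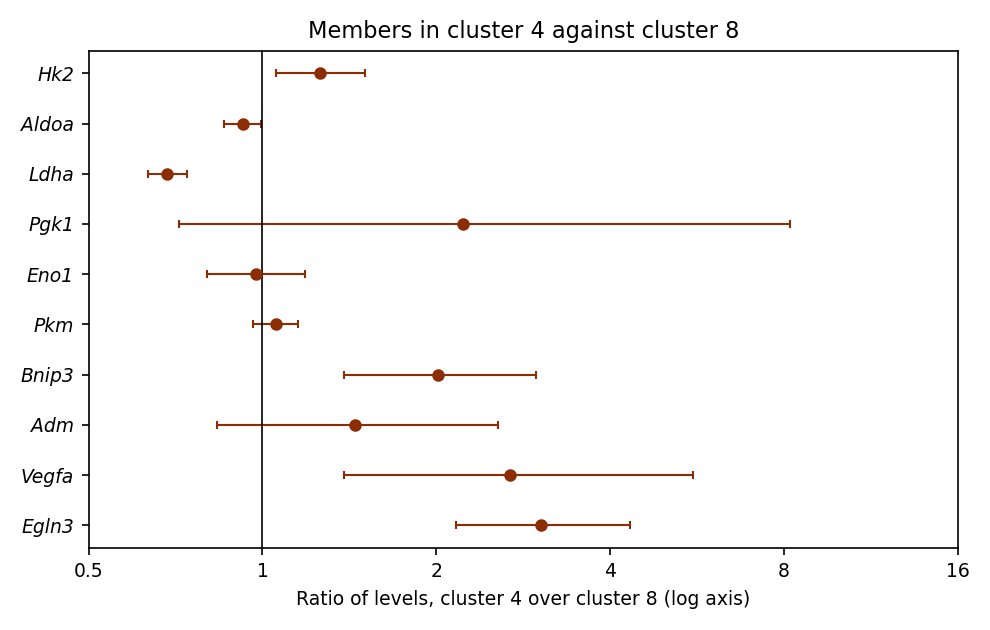
Ratio of each member's level in cluster 4 to that in cluster 8 (log axis), with the 95% counting interval. Egln3, Vegfa, Bnip3 and Hk2 lie right of 1, Ldha and Aldoa lie left of it, and the other 4 intervals cross it.

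Against the goblet-like cluster 0, 9 of 10 members were higher in cluster 4 and Pgk1 was not separated, where 32.1% of the 3276 genes were higher. Against cluster 1, 8 were higher, with Eno1 and Pgk1 not separated, where 21.6% of genes were higher. Cluster 8 stood above cluster 9, another cluster with high absorptive markers, for 8 members, with Vegfa and Pgk1 not separated, where 22.9% of genes were higher. No member was lower in any of these 3 comparisons. Over all 66 pairs of clusters and 10 members, 390 of 660 ratios had an interval on 1 side of 1, against 53.2% of such ratios over the 3276 genes. Of the 110 steps between neighbours in a member's order, 16 had an interval above 1, so most neighbouring levels did not differ beyond counting error.

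The other glycolytic enzymes were examined from a list of 24, of which 22 were measured. In cluster 4 they had a median log2 fold of 0.40, with 6 highest there, 2 at least 2-fold higher (Pfkp and Pfkfb3) and 0 at least 2-fold lower. Over all genes 7.01% were highest in cluster 4, and the shares past 2-fold were 3.26% upward and 7.29% downward. Of the 11 enzymes that reached 1 per 10000, 3 were highest in cluster 4 and 1 was at least 2-fold higher, near the 9.92% of genes at that level, with a median of 0.64. In cluster 8 the median was 0.01, with 3 highest there and also at least 2-fold higher (Eno3, Hk1 and Pfkp), against 8.47% and 3.7% of all genes. Cluster 8 did not rank next to cluster 4 for these enzymes. Over all 22, cluster 9 lay above it (0.11), with 4 peaks and 3 enzymes at least 2-fold higher, where 806 and 206 of 17044 genes were. Cluster 1 had -0.015. With the filter at 1 per 10000, cluster 1 reached 0.30 with 9 enzymes above the mean. Cluster 8 then had 0.12 with 8 above it, and cluster 9 had 0.02. Triose phosphate isomerase (Tpi1) was at 12.3 per 10000 in cluster 4 (11.6 to 13.1) against 8.66 in cluster 8, glucose phosphate isomerase (Gpi1) at 6.28 against 4.11, and Gapdh at 24.6 against 20.4. Phosphofructokinase P (Pfkp) stood at 2.14 in cluster 4 and 2.26 in cluster 8, and between 0.362 and 1.33 elsewhere. Eno3, an enolase best known from muscle, reached 8.27 in cluster 8 (7.63 to 8.95). Clusters 3 and 4 had 3.39 and 2.74, and cluster 11 is listed at 0.

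Carriers of glucose and lactate showed no common direction. For the 12 measured of 14 listed the median was -0.07 in cluster 4, and it was -0.01 in cluster 8. Slc2a1 (GLUT1), the basal glucose carrier and a HIF target, was at 2.14 per 10000 in cluster 4 (1.83 to 2.48), 1.56 in cluster 5 and 1.46 in cluster 8. The lactate exporter Slc16a3 (MCT4) reached 10.5 in the neutrophil-like cluster 5 (9.37 to 11.7). Cluster 4 had 1.33 and cluster 8 had 0.235. Slc2a3 (GLUT3) was at 2.36 in cluster 5 and at most 0.127 elsewhere. Slc16a1 (MCT1), a carrier of lactate and butyrate, led in cluster 8, at 3.104 (2.72 to 3.53), with 1.89 in cluster 3 and 0.883 in cluster 4, and the butyrate and lactate carrier Slc5a8 led in cluster 3, at 2.67. Of the branch pathways, the pentose phosphate enzyme Tkt was at 1.65 in cluster 4 and 0.651 in cluster 8, its lowest, against 5.14 in cluster 6 and 4.89 in cluster 7. Pck1, a gluconeogenic enzyme, was at 0.0676 in cluster 4, its lowest, 0.708 in cluster 8 and 1.14 in cluster 2. The pentose phosphate and glycogen list (14 measured of 14) had a median of -0.10 in cluster 4, and of -0.51 in cluster 8. In the same order the medians were for gluconeogenesis (6 of 7) -0.72 and -0.02, and for the pyruvate dehydrogenase list (11 of 11) -0.41 and 0.04, with Pdha1 at 0.701 and 0.639 per 10000.

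In the oxygen-sensing machinery, Hif1a, the first HIF alpha subunit, was highest in cluster 4, at 1.66 per 10000 (1.39 to 1.96), with 1.38 in cluster 8 and 1.37 in cluster 5, and lowest in cluster 9, at 0.279. Epas1, which encodes HIF-2 alpha, led in cluster 8 at 1.04 (0.826 to 1.30), with 0.466 in cluster 3 and 0.299 in cluster 4. Egln2 ranged between 1.21 in cluster 6 and 0.304 in cluster 10. The chaperone genes Hsp90aa1 and Hsp90ab1, whose products bind HIF alpha subunits, were at 1.40 and 3.34 in cluster 4 and at 0.928 and 2.23 in cluster 8, against 14.6 and 25.7 in cluster 11. Over the 10 measured of 11 listed the median was 0.20 in cluster 4, and it was 0.15 in cluster 8. HIF is governed largely through protein stability, which was not measured.

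For the wider list of known hypoxia targets, 48 measured of 52, the direction in cluster 4 depended on the filter for low values. Over all 48 the median log2 fold was -0.01 in cluster 4 and -0.11 in cluster 8, beside -0.10 and -0.11 for all genes. Over the 22 that reached 1 per 10000 it was 0.37 and -0.22, beside -0.37 and -0.41 for the 3276 genes. The median of the 22 was below 0 in the 11 clusters other than 4. That of the 3276 genes was below 0 in every cluster. In cluster 5 the 22 had -0.46, beside -1.12 for the 3276 genes. Of those 22, 4 were highest and 4 at least 2-fold higher in cluster 4, against 9.8% and 9.92% of the 3276 genes. Of all 48 in cluster 4, 7 were highest, 5 were at least 2-fold higher (Nos2, Nt5e, Car9, Anxa2 and Ero1l) and 3 at least 2-fold lower. Over all genes these 3 shares were 7.01%, 3.26% and 7.29%. Car9, a surface carbonic anhydrase used as a hypoxia marker, was at 1.91 per 10000 in cluster 4 (1.62 to 2.23), 1.03 in cluster 1 and 0.667 in cluster 8. Nt5e (CD73), which makes adenosine, had 2.05 in cluster 4 and 1.44 in cluster 8, and the membrane-binding annexin Anxa2 at 20.8 and 10.8. Bnip3l, the close relative of Bnip3, had 1.07 in cluster 4 (0.855 to 1.32), 0.920 in cluster 8 and 0.504 at its lowest, in cluster 9. In cluster 8, 4 of 48 were at least 2-fold higher, beside 3.7% of all genes. Plin2, a lipid droplet coat protein, was 1 of the 4, at 3.52 against 2.05 in cluster 4. Higd1a, a mitochondrial protein, was highest in cluster 9, at 15.4 (14.5 to 16.4), with 9.59 in cluster 8 and 7.09 in cluster 4. The count at least 2-fold higher was larger in cluster 10, at 11 of 48 with 5.77% of all genes. It was also larger in cluster 11, at 10 of 48, with 1885 of 17044 genes. Clusters 10 and 11 held more peaks too, 10 and 8 of 48, with 1507 and 3550 of 17044 genes. The leading genes of cluster 10, S100a4 at 4.02 and Hmox1 at 1.96, are known in macrophages. In the neutrophil-like cluster 5, Cxcr4 was at 3.48 and Pnrc1 at 14.4.

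Receptors for the secreted members were mostly scarce. Of 17 listed partners of adrenomedullin and VEGF, 12 were measured and 2 reached 1 per 10000. Ramp1, a receptor partner of the calcitonin family, had 13.6 UMIs per 10000 in the goblet-like cluster 0 (12.9 to 14.3), and cluster 11 had 3.91. Cluster 4 had 0.254 and cluster 8 had 0.0273. Nrp2, a co-receptor of VEGF family ligands, had 3.52 in cluster 11, while the table lists it at 0 for clusters 4 and 8. Of endothelial markers, 3 of 5 were measured, with a sum of at most 0.29 per 10000, in cluster 10, so the cells that these ligands are best known to act on were nearly absent from the table.

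**Figure D5:**
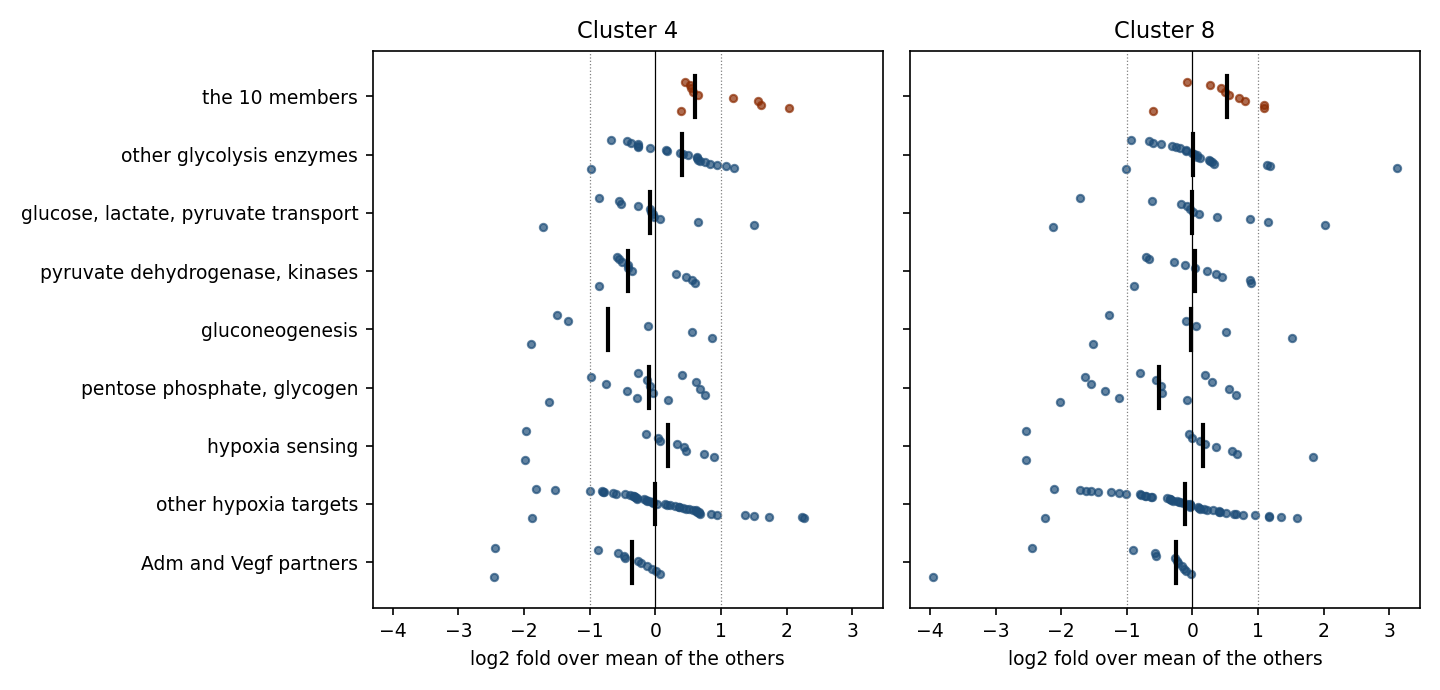
Log2 ratio to the mean of the remaining 11 clusters (0.1 per 10000 added) in cluster 4 and cluster 8, with 1 point per measured gene and a bar at each list's median; dotted lines mark 2-fold. The members have medians of 0.61 and 0.53, the other glycolytic enzymes 0.40 and 0.01, and the other hypoxia targets -0.01 and -0.11. Among genes that reached 1 per 10000 the medians are 0.64 and 0.12 for the enzymes and 0.37 and -0.22 for the targets.

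The members did not share a single pattern. Over the 12 clusters, which share libraries and differ in depth, Pearson's r of log2 levels across the 45 pairs of members had a median of 0.29, with 12 pairs above 0.5 and 6 below 0. The same was not computed over pairs of all genes, so whether these counts are high or low is not known. The closest member pairs were Eno1 with Pkm (r = 0.88), Aldoa with Ldha (0.80), Hk2 with Adm (0.75) and Pkm with Bnip3 (0.73), while Hk2 with Aldoa had 0.15. Among genes that reached 1 per 10000, those most like Egln3 were Samd9l (0.89), Ifit1 (0.87) and Naip2 (0.87), of which Samd9l and Ifit1 are known as interferon-stimulated genes. Those most like Hk2 were the nuclear RNA Neat1 (0.87), Smad7 (0.84) and Naip2 (0.82), and those most like Adm were Trim31, Leng9 and Ept1 (0.92 each). Aldoa was followed by Smpdl3a, Map2k1 and Hcfc1r1 (0.91 each), and Ldha by Plac8 (0.94), Cnih4 (0.92) and Myl6 (0.90). Bnip3 was closest to Gch1 (0.85), H2-D1 (0.84) and Tapbp (0.82), Vegfa to Stat3 (0.86), Dleu2 (0.78) and Clk1 (0.74), and Pgk1 to Sirt7 (0.91), Ifi35 (0.90) and Bst2 (0.86). Eno1 and Pkm each had the other and Capza2 among their closest 3, with Pgam1 (0.84) for Eno1 and Atp2b1 (0.80) for Pkm. These are the highest of 3276 values over 12 points and describe this table only. The r values of Pgk1, Adm and Vegfa, which stayed below 1 per 10000, are limited by counting error. Pgk1 had at most 11.6 effective UMIs in a cluster. Without the immune clusters 5 and 10, 4 of the 30 neighbours remained among the closest 3 of their member (Neat1 for Hk2, Capza2 for Pkm, H2-D1 for Bnip3 and Stat3 for Vegfa). Those of Egln3 were then Pdgfa, Cd55 and Tap1, and those of Eno1 were Psme2, Gapdh and Ube2l3. With 1 per 10000 added, 22 of the 30 remained.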

How the data were processed

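Single-cell RNA libraries of mouse colon epithelium (1 group, 2 libraries) were processed with Cell Ranger 3.1.0 and Seurat 2.3 on build mm10, per the submitters' processing notes. The sources used here do not give cell filters, doublet treatment, annotation or clustering parameters. The table the authors deposited holds 17044 genes by 12 clusters, whose values, other than counts or logs, are mean UMIs per 10000. This was read from the columns, which each sum to 10000.

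Cell numbers and UMI totals were read from low averages, where 10000 divided by the average is whole within a relative tolerance of 1e-12. Totals were identified for 2277 of 3082 cells (73.9%). Effective counts used each cluster's cells times the harmonic mean of UMIs per cell, estimated from genes with 1 UMI in 1 cell. In all, 3 estimates of this mean were tried after the member levels had been seen, and the one kept was chosen for the coverage of its intervals on simulated data. They differ by several times in some clusters, so intervals are approximate. Intervals are exact Poisson for levels and exact binomial for ratios, at 95%, and a count of 0 allows 3 counts. PCR and cell-to-cell variation are not covered. None of the member averages matched UMIs of 1 identified cell.

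Folds used a pseudocount of 0.1 per 10000, which understates low genes. Named genes were the 10 members, up to 6 genes of each pathway list by largest fold, and the 3 genes most like each member. Of these, 2 are not reported here. Other genes of the glycolysis and hypoxia lists that led in clusters 4 or 8, Slc2a1 and Eno1b were added after their values were seen, as were the motifs, the promoters printed and the 90-base windows (GENCODE M21). The members and lists were chosen with earlier results of these data known. Which clusters count as immune (5 and 10) or shallow (5 and 6) was also settled on the data. No p-value was computed. Python 3.11.15, numpy 2.4.6, scipy 1.17.1, pandas 2.3.3 and matplotlib 3.10.9 were used.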

Additional observations from a re-analysis of the deposited data

How the results depend on the processing

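The members kept at least 4 of 10 at their highest in cluster 4 under all alternatives run, and no called fold reversed. With a pseudocount of 1, 1 member was at least 2-fold higher in cluster 4 (members' median 0.48) and 1 in cluster 8 (0.29). Of the other glycolytic enzymes that reached 1 per 10000, 0 were then 2-fold higher in cluster 4 (median 0.33), and of the other hypoxia targets 2. Against the median of the other clusters the members' median in cluster 8 was 0.82, and 3 other glycolytic enzymes were 2-fold higher in cluster 4. In cluster 8, 1 member was 2-fold higher without the immune clusters, without the shallow clusters or after rescaling without mitochondrially encoded and ribosomal protein genes. That rescaling gave a members' median of 0.52 in cluster 4 and 0 other glycolytic enzymes 2-fold higher. Without the immune clusters 7 other hypoxia targets were highest in cluster 4. Shares over all genes were computed for none of the alternatives above, so these counts have no background beside them. With clusters left out, every gene also has fewer clusters in which to peak. With no filter on low values, 6 other glycolytic enzymes were highest and 2 were 2-fold higher in cluster 4, 7 other hypoxia targets were highest, and their median was -0.0071. With the filter at 1 per 10000, 3 of the enzymes were highest and 1 was 2-fold higher (median 0.64), and 4 targets were highest (median 0.37). The causes of these shifts were not tested.

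The rescaled ratios of cluster 4 to cluster 8 were chosen after seeing the data. So was the use of counts taken from the identified UMI totals, which gave narrower intervals in most clusters: 27 of 110 neighbouring steps and 430 of 660 pairs stood apart, against 16 and 390, while clusters 4 and 8 gave 4 members higher and 2 lower by either estimate. No paired analysis was possible because the columns do not separate the libraries, and leaving out a library was not run for the same reason. Depth limits Pgk1, Adm and Vegfa, which stayed under 1 per 10000, and every value of clusters 10 and 11, with 31 and 19 cells.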
